A study of Drosophila melanogaster with 12 samples.

Results

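Hsp83 is the gene of the cytosolic Hsp90 chaperone of Drosophila melanogaster, and its transcript was read in whole embryos with and without X-ray treatment. It was read on 1 probe set, 143198_AT, the 1 of 13966 gene probe sets whose identifier is listed among the synonyms of Hsp83 in the RefSeq gene table. That table left 13833 gene probe sets unnamed, and others for Hsp83 may be among them. Hsp90 chaperones are abundant ATP-driven proteins that hold protein kinases, steroid receptors and other client proteins in forms that can be activated, with the help of co-chaperones such as Cdc37 and Stip1. In Drosophila the gene is active without stress and more active after heat shock, and the chaperone is needed for signalling through the kinase Raf and the receptor Sevenless. Its mRNA is also loaded into the egg by the mother and is cleared from most of the early embryo, except for the pole cells.

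The study used C-S strain embryos and hybridised their total RNA to 12 1-colour arrays, with 3 arrays a group. The 4 groups were X-ray treated embryos at stages 13 to 15, control embryos at stages 13 to 15, X-ray treated embryos at stages 9 to 11 and control embryos at stages 9 to 11. The sample titles call the later window resistant and the earlier one sensitive, and irradiated embryos were taken 15 to 20 minutes after the exposure. The sources used here give neither the dose, the handling of the controls nor the number of embryos per sample. They do not say that samples of 1 group were separate collections, so p-values cover the spread among samples, which may be technical.

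The labelled windows were checked with a pair of stage markers. The tubulin gene betaTub60D, active in differentiating mesoderm, read 534 to 809 on the 6 arrays of stages 13 to 15 and 87.3 to 115 on the 6 arrays of stages 9 to 11. The segment polarity gene en read 54.5 to 121 on the later arrays and 185.5 to 353 on the earlier ones. Neither marker overlapped between the windows. Of the 10139 probe sets tested, 11.0% were likewise higher at stages 13 to 15 with no overlap. The share that was lower with no overlap was not computed. The arrays numbered 3 stood apart in every group on the eIF-4a 5′ over 3′ control ratio, which falls with RNA breakdown and short labelling. It was 0.14 to 0.20 on them against 0.038 to 0.080 on the other 8. The actin 5′ over 3′ ratio was 0.32 to 0.46 against 0.14 to 0.27, and the brightest probe set read 11073 to 12532 against 20207 to 24796. Numbers 1 and 2 differed too: the middle BioB spike-in probe set read 1376 to 1533 on number 1, 425 to 738 on number 2 and 226 to 299 on number 3. On the irradiated array numbered 3 of stages 9 to 11, the middle and 3′ GAPDH control probe sets read 88.5 and 59.3, against 223 to 324 and 232 to 331 on the other 5 arrays of that window, while the 5′ GAPDH probe set read 63.6, inside the 44.6 to 170 of the others (chosen after the values were seen). At stages 13 to 15 GAPDH did not repeat the eIF-4a pattern. There the irradiated array numbered 3 read 216.6 (5′) and 1212.4 (3′), against 174.5 and 780.5 on number 1 and 211.4 and 702.7 on number 2. The control numbered 3 read 309.8 and 1380.4, against 182.3 and 796.8 on number 1 and 166.2 and 826.3 on number 2. Results for Hsp83 are therefore given within each number and without the arrays numbered 3.

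Hsp83 transcript was higher at stages 13 to 15 than at stages 9 to 11, by 1.81-fold in control embryos and 2.02-fold in irradiated embryos, and showed no detectable difference after X-rays in either window. Its intensity was 1629, 1415 and 1810 in X-ray treated embryos at stages 13 to 15 on the arrays numbered 1, 2 and 3. It was 1341, 1503 and 2001 in control embryos of the same stages. At stages 9 to 11 it was 690, 824 and 873.5 in X-ray treated embryos and 708, 790 and 1194 in control embryos. All 6 arrays of the later window stood above all 6 of the earlier one, as for 11.0% of the tested probe sets. The nearest pair was the later control numbered 1 (1341) and the earlier control numbered 3 (1194). X-ray and control values overlapped within each window. The means were 1618 ± 198 (X-ray) and 1615 ± 344 (control) at stages 13 to 15, and 796 ± 94.9 (X-ray) and 897 ± 260 (control) at stages 9 to 11 (SD, n = 3 each). In order of mean level the later X-ray group came first, then the later control, the earlier control and the earlier X-ray group. Within each window the 2 neighbours in that order differed by less than the SD of either group at stages 13 to 15, and by less than the SD of the control group at stages 9 to 11.

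**Figure D1:**
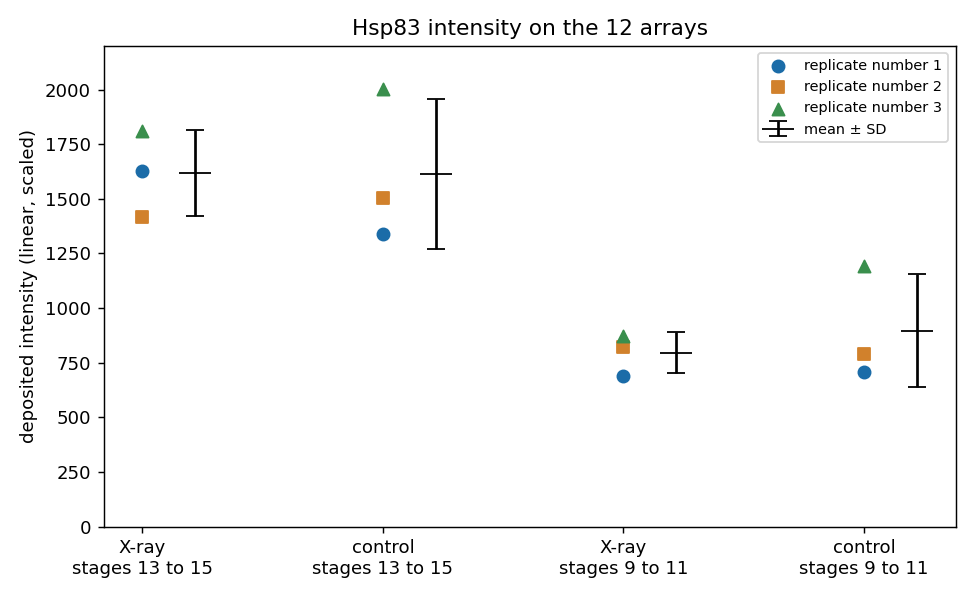
Deposited Hsp83 intensity (linear vertical axis from 0) on each of 12 arrays, with the marker shape giving the replicate number and the bars the mean ± SD of 3 arrays per group. The 6 arrays of stages 13 to 15 lie between 1341 and 2001 and the 6 of stages 9 to 11 between 690 and 1194, with X-ray and control values mixed within each window.

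The first comparison is of X-ray treated with control embryos in the earlier window, which the titles call sensitive. Here and below, differences are on the scale of log2(intensity + 13.4), which slightly understates fold changes at these levels, and they come from limma fitted to all 10139 probe sets above the filter on dim signals. At stages 9 to 11 Hsp83 differed by −0.14 ± 0.21 between X-ray and control embryos (SE, n = 3 each, adjusted p = 1.00, unadjusted p = 0.511). The 95% confidence interval ran from −0.58 to 0.30, a ratio of X-ray over control of 0.667 to 1.23. Within numbers 1, 2 and 3 the difference was −0.036, 0.060 and −0.44, lower after X-rays in numbers 1 and 3 and higher in number 2. In this comparison 0.0197% of the tested probe sets passed at an adjusted p of 0.05, and 39.3% had a smaller absolute difference than Hsp83.

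The value of number 3 rested on its control array, which read 1194 against 708 and 790 on the other 2 controls. Without that array the difference was 0.082 (adjusted p = 1.00), of the opposite sign, and without all 4 arrays numbered 3 it was 0.012 ± 0.14 (SE, adjusted p = 0.993). Without the irradiated array numbered 3, the one with low middle and 3′ GAPDH signals, it was −0.21 (adjusted p = 0.917).

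At stages 13 to 15, the window called resistant, Hsp83 differed by 0.016 ± 0.21 between X-ray and control embryos (SE, n = 3 each, adjusted p = 1.00, unadjusted p = 0.940). The 95% confidence interval of −0.43 to 0.46 corresponds to a ratio of 0.743 to 1.38. Within numbers 1, 2 and 3 the difference was 0.28, −0.086 and −0.14, higher in number 1 and lower in numbers 2 and 3. Of all tested probe sets, 0% passed in this window (4.96% had an unadjusted p under 0.05 in limma), and 4.14% had a smaller absolute difference than Hsp83. Its sign was negative without the later control numbered 1 (−0.11), the later control numbered 2 (−0.025) or the irradiated array numbered 3 (−0.068), and positive without any other array. Without all 4 arrays numbered 3 the difference was 0.096 ± 0.14 (SE, adjusted p = 0.890).

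Over both windows together, with 6 irradiated and 6 control arrays, the mean X-ray effect on Hsp83 was −0.062 ± 0.15 (SE, adjusted p = 1.00). Its 95% confidence interval of −0.38 to 0.25 gives a ratio of 0.771 to 1.19. An exact permutation test of this single value, with treatment labels exchanged within each window, gave p = 0.705 (2-sided, 400 arrangements, smallest possible p of 0.005). The difference between the X-ray effects, stages 9 to 11 minus stages 13 to 15, was −0.16 ± 0.29 (SE, 95% confidence interval −0.78 to 0.47, adjusted p = 0.997), and 0.0197% of the tested probe sets passed for that difference. With the replicate number as a block in the fit, the intervals were narrower and the estimates the same: −0.41 to 0.13 at stages 9 to 11, −0.26 to 0.29 at stages 13 to 15 and −0.26 to 0.13 for their mean, each still including 0.

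**Figure D2:**
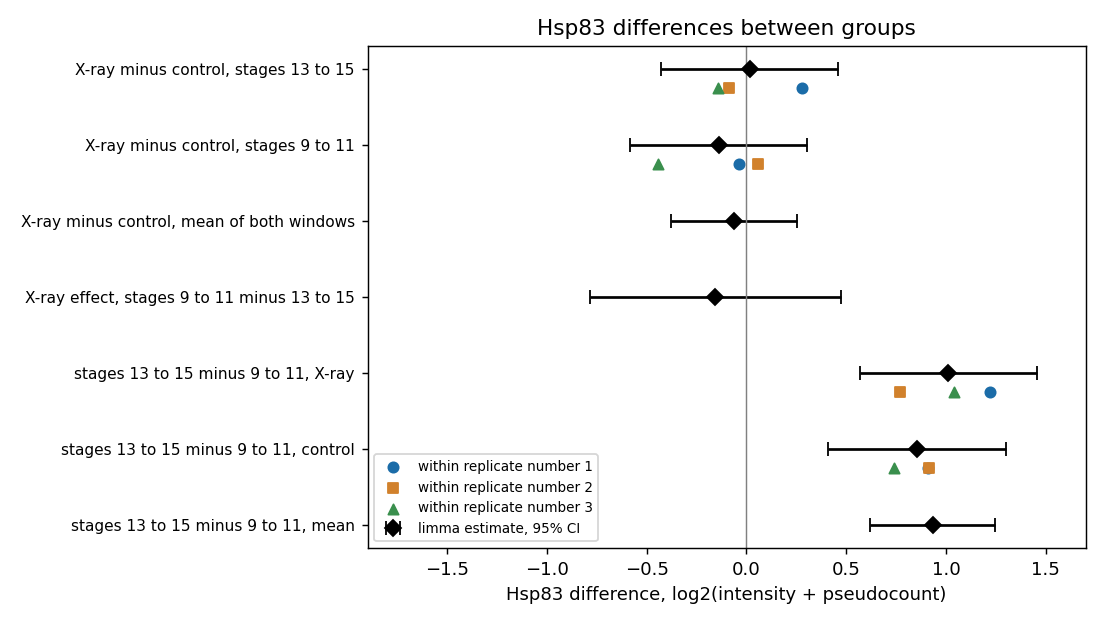
Hsp83 differences on the log2(intensity + pseudocount) scale, with limma estimates and 95% confidence intervals (diamonds and bars) and the difference within each replicate number (coloured markers below). The 4 X-ray rows include 0 in their intervals, from −0.78 to 0.47 at the widest, while the 3 stage rows lie between 0.41 and 1.46.

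The stage difference was measured on separate arrays in irradiated and in control embryos. In irradiated embryos Hsp83 rose by 1.01 ± 0.21 on the log2 scale at stages 13 to 15 relative to stages 9 to 11 (SE, n = 3 each, limma adjusted p = 0.00214), with a 95% confidence interval of 0.57 to 1.46. The differences within numbers 1, 2 and 3 were 1.22, 0.77 and 1.04. In control embryos it rose by 0.86 ± 0.21 (SE, n = 3 each, limma adjusted p = 0.00604), with an interval of 0.41 to 1.30 and differences of 0.91, 0.92 and 0.74 within the numbers. All 6 differences within numbers were positive. They had to be, as every later array stood above every earlier one, so their signs add no support. The background is large: 23.6% of the tested probe sets passed in 1 direction or the other in irradiated embryos and 26.8% in controls. A smaller absolute stage difference than that of Hsp83 was found for 80.2% of them in irradiated embryos and 71.3% in controls. Since whole embryos were used, a larger number of cells with the transcript and more transcript per cell cannot be told apart.

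Averaged over irradiated and control embryos, the stage difference of Hsp83 was 0.93 ± 0.15 (SE, limma adjusted p = 0.000109), a ratio of 1.91 with a 95% confidence interval of 1.54 to 2.37, and 37.9% of tested probe sets passed in that comparison. The exact permutation test, with window labels exchanged within each treatment, gave p = 0.005 (2-sided, 400 arrangements), the smallest it can give. Every later array stood above every earlier one, which sets this value, so it adds nothing beyond that separation. In a single comparison of 3 arrays with 3, an exact test cannot give a p below 0.1, and both stage differences reached that value for the same reason. Complete separation of the windows over the 12 arrays, higher at stages 13 to 15, was seen for 11.0% of the tested probe sets. The stage difference in irradiated embryos minus that in controls is the X-ray contrast between windows given above with the sign turned, so it did not pass either.

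The share of the variation in Hsp83 that lay between windows was large. In the balanced layout of 2 windows, 2 treatments and 3 numbers, the window took 80.5% of the sum of squares of the log2 values of Hsp83, the treatment 0.357% and the window by treatment term 0.563%. The replicate number took 13.9% and the remainder 4.68%. The medians of these shares over all tested probe sets were 27.0%, 2.12%, 2.60%, 13.5% and 29.8% in the same order. The array numbered 3 gave the highest Hsp83 reading in all 4 groups, by 0.14 to 0.44 on the log2 scale above the group mean, a pattern held by 6.79% of tested probe sets. The same arrays had the high eIF-4a ratios and the dim brightest probe sets given above, and the part of these in the Hsp83 readings was not tested. Without the 4 arrays numbered 3 the stage difference was 1.00 ± 0.14 in irradiated embryos (SE, adjusted p = 0.000297) and 0.91 ± 0.14 in controls (SE, adjusted p = 0.000493).

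The rank of Hsp83 on each array gives a reading that does not depend on how arrays were scaled. Its intensity lay at the 98.3rd to 98.8th percentile of the gene probe sets on the 6 later arrays and at the 96.6th to 98.2nd percentile on the 6 earlier ones, again without overlap. The share of all probe sets with no overlap in rank was not computed. The mean rank difference between the windows was 1.55 percentile points in irradiated and 1.38 in control embryos. That between X-ray and control embryos was 0.0477 points at stages 13 to 15 and −0.128 at stages 9 to 11. With each array scaled to a common median in place of the deposited scaling, the stage difference in controls was 0.65 (adjusted p = 0.0553) and no longer passed. Under that scaling the median of all tested probe sets shifted by −0.17 in the same comparison, and relative to the median Hsp83 was higher by 0.77, against 0.80 with the deposited scaling.

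**Figure D3:**
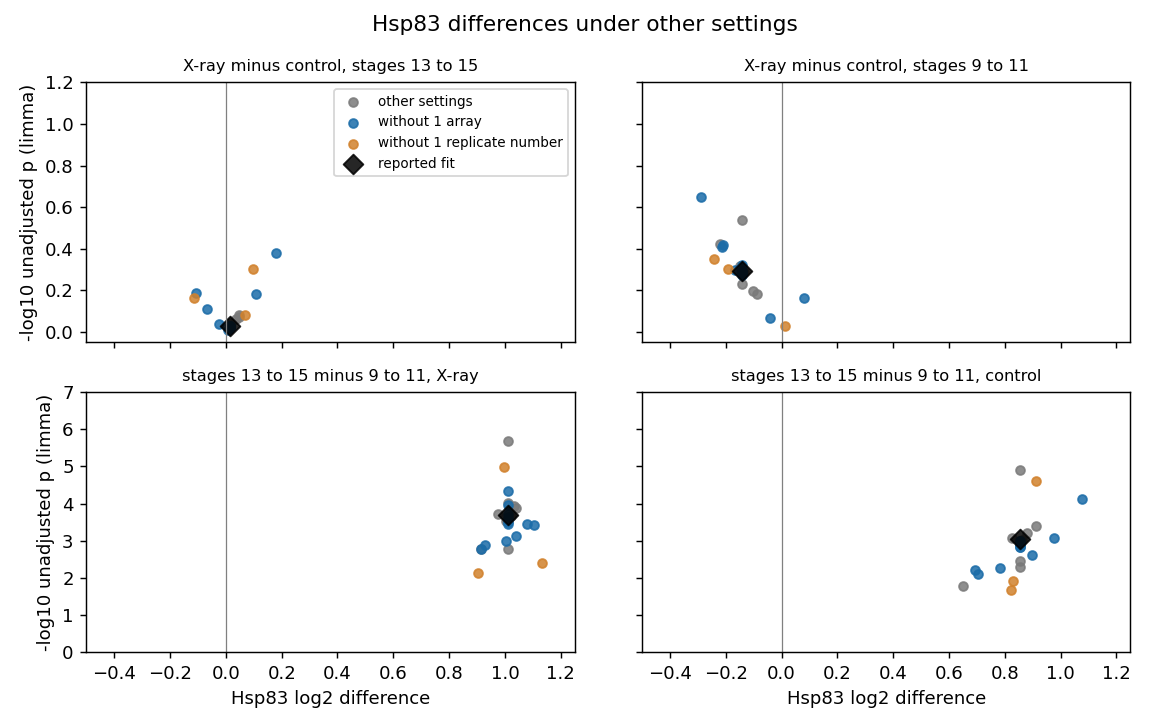
Hsp83 log2 difference (horizontal) against −log10 of the unadjusted limma p (vertical, different scales in the upper and lower rows) under each setting of the fit, with the reported fit as a black diamond. The X-ray differences in the upper panels lie from −0.29 to 0.18, on both sides of 0, and the stage differences in the lower panels lie from 0.65 to 1.13.

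Few other chaperone genes could be read by name. Of 12 genes of the Hsp90 machinery, a list with the co-chaperones, the mitochondrial paralog Trap1 and the endoplasmic reticulum paralog Gp93, 1 was named among the probe sets, Hsp83 itself. Of 39 heat shock and other chaperone genes, 2 were named. Hsc70-1, a member of the Hsp70 family, read 11.5 to 46.1 on the later arrays and 5.8 to 27.4 on the earlier ones. Hsp60B, a chaperonin gene known for its role in sperm, read 1.9 to 25.2 and 1.9 to 20.0 on the same arrays. Neither exceeded the intensity of 29.9 on the 3 arrays that the filter on dim signals required, so neither was tested. No gene of the lists for the early radiation response (19 genes) or for Hsp90 clients (18 genes) was named. The other members of these lists were not analysed here.

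The named genes whose values were most like those of Hsp83 were found by the root-mean-square difference between log2 values over the 12 arrays, after each gene's own mean was subtracted. They were Lsd-2, a perilipin of lipid droplets (0.24), the muscle actin gene Act79B (0.26), Taldo, encoding transaldolase of the pentose phosphate pathway (0.28), Ogdh, encoding a 2-oxoglutarate dehydrogenase subunit (0.32), and Tep2, encoding a thioester-containing protein of the complement-like family (0.33). Over all 108 named probe sets compared the measure ran from 0.24 to 1.64 with a median of 0.76, and a profile with no variation at all would stand at 0.52. All probe sets share the same 12 arrays, with their scaling and number effects, and 33 unnamed probe sets stood closer to Hsp83 than Lsd-2 did.

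Since these 5 genes were chosen for likeness to Hsp83 on the same arrays, which favours a higher level in the later window and little difference after X-rays, their values are a description with no test. For Taldo the log2 difference of stages 13 to 15 minus stages 9 to 11 was 1.26 in irradiated and 1.26 in control embryos. For Act79B it was 1.06 in irradiated and 0.91 in control embryos. Its probe set, 143060_F_AT, carries the suffix that marks probes shared within a gene family, so signal of related actin transcripts cannot be told apart from its own. For Tep2 it was 0.97 in irradiated and 0.82 in control embryos on 145970_AT, while its other probe set, 145971_at, gave −0.38 and 0.31 in the same order, so the probe sets disagree. For Lsd-2 it was 1.06 in irradiated and 0.32 in control embryos, whose array numbered 3 of stages 9 to 11 read 278 against 126 and 140 on the other 2. For Ogdh it was 0.53 in irradiated and 0.35 in control embryos. The differences of X-ray minus control embryos ran from −0.11 to 0.33 at stages 13 to 15 and from −0.41 to 0.03 at stages 9 to 11 over the 5 genes.

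**Figure D4:**
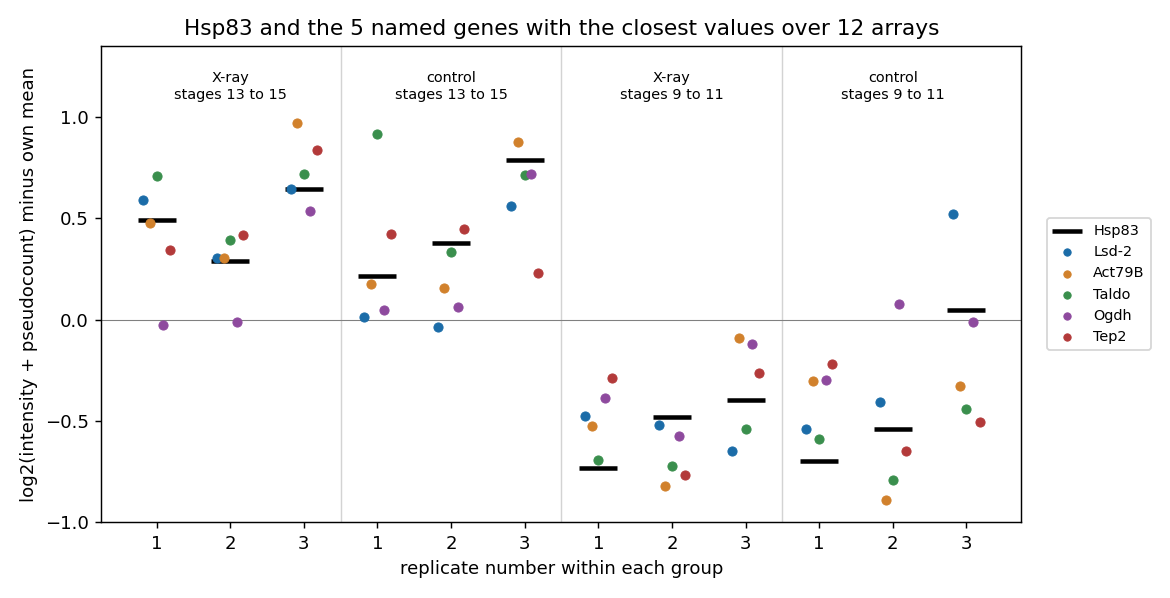
Log2(intensity + pseudocount) minus each gene's own mean for Hsp83 (black dashes) and the 5 named genes closest to it (coloured points), for each of 12 arrays in 4 groups. Hsp83 lies above its mean on all 6 arrays of stages 13 to 15 and on 1 array of stages 9 to 11, the control numbered 3.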

How the data were processed

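The deposited values are linear intensities, 1 per probe set and array, for 14010 probe sets on 12 arrays. The sources used here name no scanner, normalization or background correction. After trimming 2% at each end, array means agreed within 0.00230%, so the deposited intensities had been scaled to a common mean and no further normalization was applied. The 44 array controls were left out. RefSeq synonyms (Release 6 plus ISO1 MT table), matched without regard to case, named 133 probe sets (131 genes), and no coordinates or sequences were used.

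Values entered as log2(intensity + 13.4), the 25th percentile of gene probe sets. Probe sets above 29.9 (40th percentile) on at least 3 arrays entered limma 3.58.1 under R 4.3.3 (4 group means, eBayes with trend, 2-sided, Benjamini-Hochberg over 10139 probe sets). The code was tested on simulated data with independent noise and no effect of window or number, unlike these arrays. Deviations from group means of same-numbered arrays correlated at 0.0139 to 0.436 over probe sets. All 3 correlations were above 0.1 (0.176, 0.130 and 0.421) for X-ray and control arrays at stages 9 to 11. No other comparison had all 3 above 0.1. X-ray and control arrays of the later window gave 0.0999, 0.117 and 0.436, so a cutoff of 0.1 barely separates the windows. Any pairing by number is thus read from the data, not the labels. The reported fit used no pairs, and the fit with the replicate number as a block used it for every comparison. The named genes were Hsp83, the stage markers, the array controls, list members and the 5 genes closest to Hsp83. Hsp83, the lists and the tests were chosen with earlier results of these data known. Alternatives were other scalings, pseudocounts, filters and variance models, array weights, the replicate number as a block, fits of the compared arrays alone, and fits without single arrays or numbers.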

Additional observations from a re-analysis of the deposited data

How the results depend on the processing

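The X-ray differences of Hsp83 did not pass the threshold in any of the 25 or 26 other limma fits of each comparison (adjusted p of 0.809 or more), and the stage difference averaged over irradiated and control embryos passed in all 25 (0.78 to 1.04). Not all of these fits could move an estimate. Leaving out an array outside the groups compared changes only the SE and p. The same holds for other filters, no trend, the block and the compared arrays alone. The stage difference passed in 25 of 26 fits in irradiated embryos (0.91 to 1.13) and in 23 of 26 in controls (0.65 to 1.08). It was lost in controls with arrays scaled to the median (0.65, adjusted p = 0.0553), without the arrays numbered 1 (0.83, adjusted p = 0.0633) and without those numbered 2 (0.82, adjusted p = 0.0970), and in irradiated embryos without the arrays numbered 1 (0.91, adjusted p = 0.0505). The fits without a number rest on 2 arrays a group. The sign of the X-ray difference turned without the arrays numbered 3 at stages 9 to 11 (0.012) and for the mean of the windows (0.054), and without those numbered 1 at stages 13 to 15 (−0.12). Leaving out 1 array at a time gave −0.29 to 0.082 at stages 9 to 11, −0.11 to 0.18 at stages 13 to 15, −0.32 to 0.066 for the difference between windows and −0.14 to 0.049 for their mean. For the stage it gave 0.91 to 1.10 in irradiated embryos, 0.69 to 1.08 in controls and 0.85 to 1.04 for their mean, with all calls kept. In percentile points of rank on the array, which have no test, the X-ray differences were −0.128, 0.0477, −0.175 and −0.0400 in the order of the first list, and the stage differences 1.55, 1.38 and 1.46 in that of the second.

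Over all tested probe sets, the number called for X-rays at stages 9 to 11 (2) was 0 without the trend or without the arrays numbered 1 or 2, 1 with only the arrays compared, 9 without those numbered 3, and 0 to 3 without single arrays. At stages 13 to 15 (0 called) it was 1 without the arrays numbered 3 and 0 to 1 without single arrays. For the difference between windows (2) it was 1 with quantile normalization, 75th percentile scaling, 4 times the pseudocount, no filter or a stricter filter, 0 without the trend or without the arrays numbered 1 or 2, 12 without those numbered 3, and 0 to 3 without single arrays. For the mean X-ray effect (0 called) it was 1 without the trend and 1 without the arrays numbered 3. For the stage difference in irradiated embryos (2390) it was 1456 and 1444 without the arrays numbered 1 or 2, and in controls (2719) 1692 and 1646. Scaling to the median moved the share of control calls that were higher to 33.8%, against 46.0%. The causes of these shifts were not tested.

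With the replicate number as a block (replicate block) the X-ray differences kept their values, with SE 0.13 in each window (adjusted p = 1.00 at stages 9 to 11 and 0.994 at stages 13 to 15), and the stage differences of 1.01 and 0.86 had adjusted p of 5.43e-05 and 0.000176. An array correlated best with its own number in 30 of 36 combinations with another group, a hint of a shared number effect from the data. The block gave 3 calls against 2 for X-rays at stages 9 to 11, moved no count of calls by over 1.5 times and changed no call of Hsp83.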
